A study of Mus musculus with 6 samples.

Results

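Expression of 10 genes of the nuclear receptor family was followed in MC3T3-E1, a mouse cell line of osteoblast precursors that was derived from the calvaria. They are the vitamin D receptor gene Vdr, the retinoic acid receptor genes Rara and Rarg, the retinoid X receptor genes Rxra and Rxrb, the peroxisome proliferator-activated receptor genes Ppard and Pparg, the orphan receptor genes Nr2f1 and Nr2f2 (COUP-TFI and COUP-TFII), and the orphan receptor gene Nr4a1 (NUR77). They were chosen by name, from the receptors outside the corticoid and clock receptors, and all 10 were found among the 54532 rows of the deposited table. The choice was made with earlier results of these data known, and 31 other nuclear receptor genes form a separate list below. Cells treated with glucocorticoid (GC) for 12 hours gave 3 libraries, and untreated control cells of the same line gave 3. Neither the agent nor its dose is named in the labels, no genotype differs between the groups, and the series places the comparison in work on osteoblast death under glucocorticoid. All libraries come from 1 cell line, so the replicates carry no variation between animals.

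Nuclear receptors are transcription factors that bind DNA through paired zinc fingers, and most of them are switched by a small fat-soluble ligand. Vitamin D, retinoic acid and PPAR receptors bind DNA as partners of a retinoid X receptor, so the RXR genes serve all of these pathways. In bone, vitamin D signalling acts on osteoblast genes and mineral supply, retinoic acid acts on growth plate and osteoblast differentiation, and PPAR gamma favours the fat cell over the bone cell fate.

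The libraries held between 15886698 and 17933619 whole reads recovered from the deposited FPKM, a unit that divides reads by exon length and by library depth. The treatment check genes Tsc22d3, Sgk1 and Fkbp5 rose with log2 fold changes of 2.47, 2.33 and 1.19, each with every GC library above every control library. On the first principal component of all tested genes, which held 41.3% of the variance, GC replicate 2 stood apart from GC replicates 1 and 3, at -4.60 against 29.9 and 17.5, with control libraries between -17.6 and -7.57. Without it 1227 genes passed by limma-trend in place of 227, and among the receptor genes 1 in both cases. Of 9 osteoblast lineage markers 7 were tested and none passed, and the list summed to between 3423 and 3694 FPKM in GC and between 3980 and 4182 FPKM in control. Alpl, the alkaline phosphatase gene that marks active osteoblasts, was at 0 in every library but GC replicate 3 (0.0288 FPKM). Bglap was not tested either, at means of 0.949 FPKM in GC and 0.445 FPKM in control. Of the tested markers, Runx2 averaged 10.8 FPKM in GC and 10.3 FPKM in control, and Col1a1 1416 FPKM in GC and 1755 FPKM in control. The 6 adipocyte markers summed to between 0.0262 and 0.247 FPKM in GC and between 0 and 0.0139 FPKM in control, where the GC sum came from Fabp4 and Adipoq. Fabp4, a fatty acid carrier of fat cells, had 2, 9 and 8 reads in GC and 1, 0 and 0 in control, Adipoq had 3 reads in GC replicate 2 alone, and Cfd, Cidec, Lep and Plin1 were at 0 in all libraries. Endothelial, leukocyte and muscle markers summed to less than 1 FPKM in each library. Of the 4 chondrocyte markers 2 were tested. Their list summed to between 12.7 and 17.3 FPKM in GC and between 20.2 and 21.4 FPKM in control, and Col2a1, the collagen of cartilage, fell to 1.21 ± 0.159 FPKM in GC, against 3.60 ± 0.447 FPKM in control (SD, n = 3 each; limma-trend, adjusted p = 0.0146). Sox9, the other tested gene of that list, did not pass (limma-trend, adjusted p = 0.405). It averaged 14.5 ± 2.51 FPKM in GC and 17.0 ± 0.984 FPKM in control (SD, n = 3 each). The part of Col2a1 in the receptor values was not tested.

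The start regions of Rarg and Rara are shown because these are the receptor genes whose values stood farthest below control. RefSeq gives 19 windows for the 10 genes on GRCm38.p6 (mm10), each 300 bases long, from 250 before to 50 after an annotated start. Rarg has 2 windows on the minus strand, the upstream one at chr15:102257473-102257772 and the one inside the gene at chr15:102246451-102246750. Rara has 4 windows on the plus strand, all within the GENCODE M21 span of the gene, of which the first, chr11:98937446-98937745, and the last, chr11:98964622-98964921, are given. Capitals mark AGGTCA, the hexamer that many nuclear receptors bind, and GGGCGG, the GC box, each on either strand.
Rarg upstream window: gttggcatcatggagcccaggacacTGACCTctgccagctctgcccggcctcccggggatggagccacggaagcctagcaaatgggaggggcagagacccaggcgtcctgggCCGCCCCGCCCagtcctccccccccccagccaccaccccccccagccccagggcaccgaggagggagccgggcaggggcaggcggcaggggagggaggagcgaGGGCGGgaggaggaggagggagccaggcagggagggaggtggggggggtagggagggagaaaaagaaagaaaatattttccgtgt
Rarg inner window: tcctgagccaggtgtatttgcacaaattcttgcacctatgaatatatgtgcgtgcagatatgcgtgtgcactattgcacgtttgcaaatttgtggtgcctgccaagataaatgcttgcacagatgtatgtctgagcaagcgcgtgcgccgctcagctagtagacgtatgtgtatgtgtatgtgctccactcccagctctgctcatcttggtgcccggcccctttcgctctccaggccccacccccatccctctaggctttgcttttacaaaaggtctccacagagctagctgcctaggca
Rara first window: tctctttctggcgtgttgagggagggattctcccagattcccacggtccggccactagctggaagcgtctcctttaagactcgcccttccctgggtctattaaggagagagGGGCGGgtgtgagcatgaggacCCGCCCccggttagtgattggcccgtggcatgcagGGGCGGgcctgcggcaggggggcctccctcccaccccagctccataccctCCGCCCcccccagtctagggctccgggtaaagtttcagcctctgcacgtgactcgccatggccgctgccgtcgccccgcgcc
Rara last window: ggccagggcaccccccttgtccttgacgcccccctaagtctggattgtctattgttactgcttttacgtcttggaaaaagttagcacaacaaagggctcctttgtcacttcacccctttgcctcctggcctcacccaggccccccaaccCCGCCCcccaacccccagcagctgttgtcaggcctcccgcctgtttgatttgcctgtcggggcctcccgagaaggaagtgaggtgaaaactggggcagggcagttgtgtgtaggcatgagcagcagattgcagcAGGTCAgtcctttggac
AGGTCA was found once in the upstream Rarg window and once in the last Rara window. It was found in 5 of the 19 windows of the 10 genes, against 16.3% of 32817 windows of all genes. GGGCGG stood in 13 of the 19 windows, against 35.6% of all windows, and was found 3 times in the upstream Rarg window (a pair of these matches share a base), 4 times in the first Rara window, and not in the inner Rarg window. The second Rara window, chr11:98937468-98937767, overlaps the first and holds the same 4 matches, so both windows are counted. The 19 windows held between 40.3% and 83% G and C, and this share was not computed for all windows. The palindromic glucocorticoid response element (AGAACA, any 3 bases, then TGTTCT), the hexamer AGAACA that it contains, and the AP-1 site TGANTCA were searched on both strands as well. They were found in none of the 19 windows, against 0.00914%, 19.0% and 7.81% of all windows.

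Rarg was the most abundant of the 10 receptor genes in both groups and the only one that passed the test. FPKM is a level per gene length, so the genes can be ranked within a library. In GC cells the mean FPKM ran from Rarg (35.6) through Nr2f2 (26.4), Rxra (21.2), Rara (17.9), Rxrb (13.5), Vdr (12.8), Nr2f1 (10.6), Ppard (7.54) and Nr4a1 (3.00) to Pparg (0.0862). In control cells the order was Rarg (63.4), Nr2f2 (29.97), Rxra (25.9), Rara (23.2), Rxrb (16.5), Nr2f1 (11.2), Vdr (10.3), Ppard (8.58), Nr4a1 (3.76) and Pparg (0.0929). Neighbours whose libraries overlapped were Rxra and Rara in both groups, Rxrb and Vdr in GC, and Nr2f1 and Vdr in control. Together the 10 genes summed to 153, 154 and 139 FPKM in GC replicates 1 to 3 and to 200.04, 193 and 186 FPKM in control replicates 1 to 3.

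**Figure D1:**
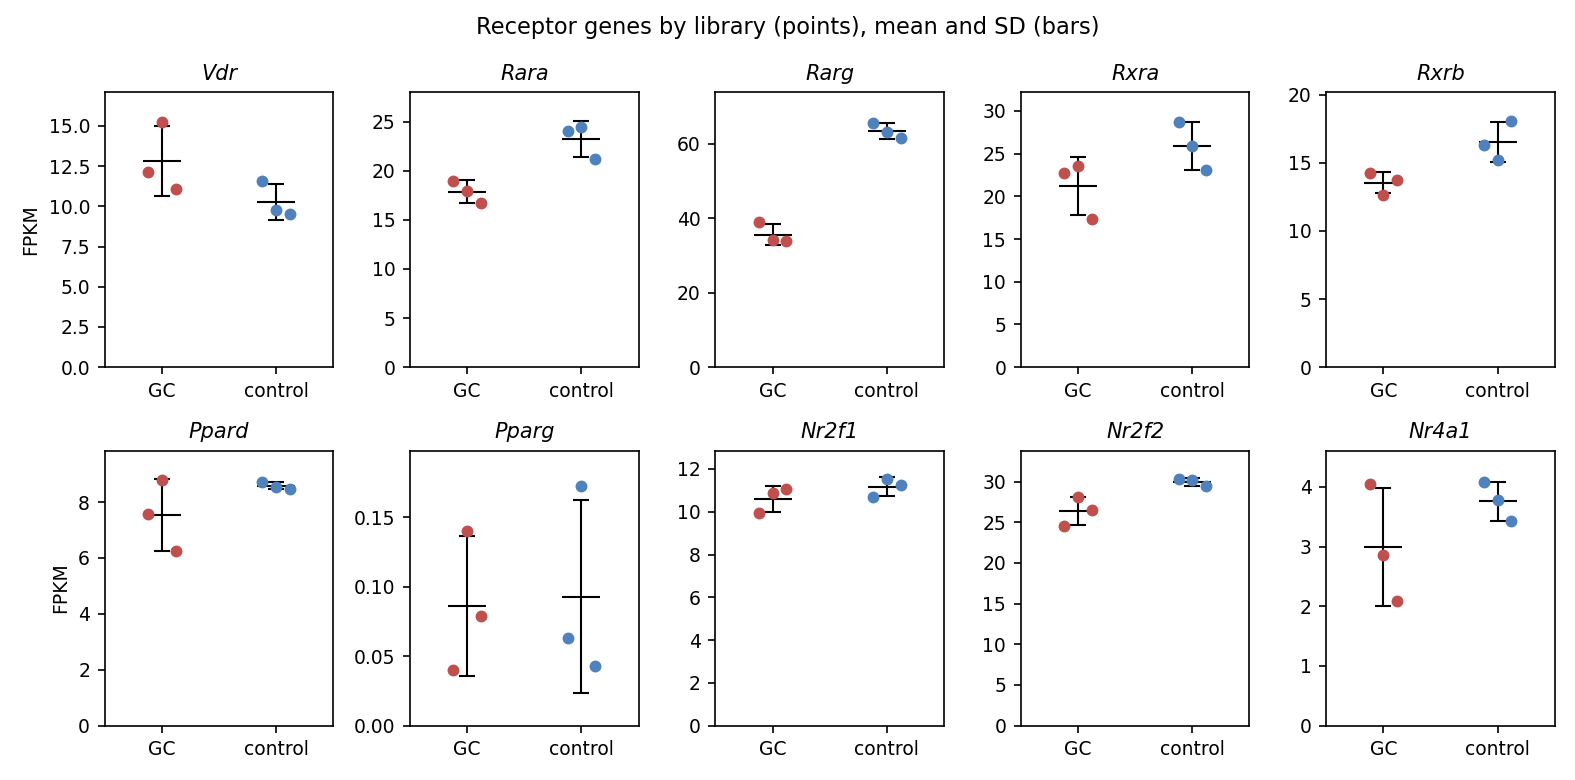
Each panel plots the FPKM of 1 receptor gene on a linear axis from 0, with GC libraries left and control libraries right, points for libraries, and the mean with its SD (n = 3 each) as bars. The GC libraries of Rarg lie between 33.8 and 38.9 FPKM and the control libraries between 61.4 and 65.6 FPKM, while those of Vdr, Rxra, Ppard, Pparg, Nr2f1 and Nr4a1 overlap.

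Of the 10 genes 9 reached 1 FPKM in 3 or more libraries, as did 11730 rows in all, on which limma-trend was run. Fold changes are differences of log2(FPKM + 1), GC minus control, a scale on which changes of low genes look smaller. Of the 9 genes 1 fell, none rose and 8 did not pass, where 1.94% of all tested genes passed, 0.853% as lower and 1.08% as higher in GC. With the replicate number as a block 2 of the 9 fell and none rose, where 8.96% of all tested genes passed, 5% as lower and 3.96% as higher in GC. Their log2 fold changes were negative for 8 and positive for 1, with a median of -0.27 against -0.01 over all tested genes, of which 52.3% were negative. Of the 11 tested genes in the list of other nuclear receptors below, 7 were negative and 4 positive, with a median of -0.14. In 4 of the 9, each GC library lay below each control library, and in none above. Over all tested genes the groups did not overlap for 25.6%, with GC below for 14.8% and above for 10.8%. Lower RNA per cell and fewer cells that use a gene cannot be told apart in such libraries.

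**Figure D2:**
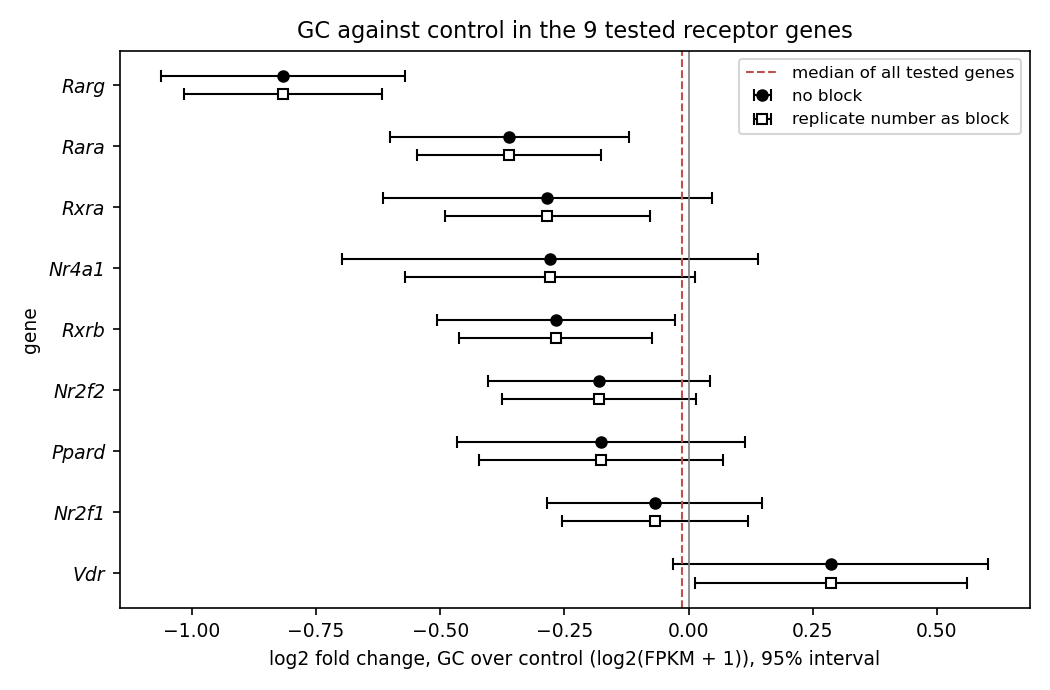
Log2 fold changes of GC over control on the log2(FPKM + 1) scale with 95% intervals from limma-trend are plotted for the 9 tested genes, filled without and open with the replicate number as a block. The red dashed line is the median of all tested genes (-0.01). The interval of Rarg runs from -1.06 to -0.57, and Vdr alone lies to the right of 0.

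The retinoic acid receptors, which bind all-trans retinoic acid, were lower in GC libraries. Rarg (ENSMUSG00000001288.15), the gene of the gamma receptor that is prominent in skin and skeletal tissue, lies on the minus strand of chromosome 15 from 102234938 to 102257517. It had 38.9, 34.2 and 33.8 FPKM in GC replicates 1 to 3, against 65.6, 63.2 and 61.4 FPKM in control replicates 1 to 3. The highest GC library stayed well below the lowest control library. These levels rested on between 2464 and 2817 reads per GC library and between 4116 and 4491 per control library. Rarg fell to 0.562 of its control mean, a log2 fold change of -0.82 ± 0.11 (SE, adjusted p = 0.0173 by limma-trend). In absolute size this exceeded the log2 fold change of 98.1% of the tested genes, and by p it ranked 43 among them. The adjusted p of limma-trend was 0.0162 without GC replicate 1 and 0.0151 without GC replicate 2. It missed the threshold at 0.0981 without GC replicate 3, at 0.0827, 0.102 and 0.0853 without control replicates 1, 2 and 3, and at 0.0829 with no filter on low rows, while the log2 fold change stayed between -0.88 and -0.78 without any 1 library.

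Rara (ENSMUSG00000037992.16), the gene of the widely expressed alpha receptor, lies on the plus strand of chromosome 11 from 98927818 to 98974942. It had 19.0, 17.9 and 16.7 FPKM in GC replicates 1 to 3, against 24.1, 24.5 and 21.2 FPKM in control replicates 1 to 3. All GC libraries lay below all control libraries. The log2 fold change was -0.36 ± 0.10 (SE), with an adjusted p of 0.125 by limma-trend, or 0.0383 with the replicate number as a block. Rara and Rarg together held 57.9, 52.1 and 50.5 FPKM in GC, against 89.7, 87.7 and 82.6 FPKM in control. Rarb, the gene of the beta receptor and itself a known retinoic acid target, was at 0 in 4 libraries and had 2 reads in GC replicate 3 and 1 in control replicate 2.

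The retinoid X receptors, the shared partners, had lower mean levels in GC without passing. Rxra (ENSMUSG00000015846.14, chromosome 2, plus strand, 27676440 to 27762957) had 22.7, 23.6 and 17.3 FPKM in GC replicates 1 to 3, against 28.7, 25.9 and 23.1 FPKM in control. The groups overlapped, because GC replicate 2 lay above control replicate 3. Its log2 fold change was -0.28 with a 95% interval from -0.61 to 0.05 (limma-trend, adjusted p = 0.329). Without GC replicate 3, its lowest library, the log2 fold change was -0.15. Rxrb (ENSMUSG00000039656.17, chromosome 17, plus strand, 34031812 to 34038399) had 14.2, 12.7 and 13.8 FPKM in GC, against 16.3, 15.2 and 18.1 FPKM in control, with no overlap. Its log2 fold change was -0.27 with a 95% interval from -0.51 to -0.03 (limma-trend, adjusted p = 0.217). The deposited Rxrb values correspond to an exon length of 3698 bases, while GENCODE M21 gives 3973. Rxrg, the third gene of this group and a gene of muscle and brain, was listed at 0 in all libraries.

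Vdr (ENSMUSG00000022479.15), the receptor of the active vitamin D hormone, lies on the minus strand of chromosome 15 from 97854425 to 97910630. It had 12.1, 15.2 and 11.1 FPKM in GC replicates 1 to 3, against 11.5, 9.77 and 9.50 FPKM in control replicates 1 to 3. GC replicate 2 stood highest, and GC replicate 3 lay below control replicate 1. Its log2 fold change was 0.29 with a 95% interval from -0.03 to 0.60 (limma-trend, adjusted p = 0.304), and 0.16 without GC replicate 2. Among the 9 tested of the 10 receptor genes it was the only one with a positive fold change. The vitamin D-degrading enzyme gene Cyp24a1, a classic target of the receptor, had 1 read in GC replicate 2, 1 in control replicate 1 and none in the other libraries.

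Of the PPAR genes, only Ppard was tested. Ppard (ENSMUSG00000002250.16, chromosome 17, plus strand, 28232700 to 28301474), the gene of the widely expressed fatty acid sensor, had 7.58, 8.80 and 6.24 FPKM in GC, against 8.72, 8.55 and 8.47 FPKM in control. GC replicate 2 lay above all control libraries and the other GC libraries below them. The log2 fold change was -0.18 with a 95% interval from -0.47 to 0.11 (limma-trend, adjusted p = 0.49998). It was -0.06 without GC replicate 3 and -0.28 without GC replicate 2. Pparg (ENSMUSG00000000440.12, chromosome 6, plus strand, 115360951 to 115490399), the gene of the master regulator of fat cells, had 0.0399, 0.140 and 0.0785 FPKM in GC, against 0.0632, 0.172 and 0.0431 FPKM in control. These values rested on 2, 7 and 4 reads in GC and 3, 8 and 2 reads in control. The sum was 13 reads in GC and 13 in control, each with an exact Poisson 95% interval from 6.92 to 22.2 that covers counting error only, so a difference was not detectable at this depth. Ppara, the gene of the alpha receptor of liver, had 1 read in GC replicate 1 and none elsewhere.

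The COUP-TF genes encode closely related orphan receptors, which act mostly as repressors and take part in cell fate choices of mesenchymal cells. Nr2f2 (ENSMUSG00000030551.14, chromosome 7, minus strand, 70351944 to 70366735) had 24.6, 28.1 and 26.5 FPKM in GC, against 30.3, 30.2 and 29.4 FPKM in control. The GC libraries all lay below the control libraries and spread more widely (SD 1.75 in GC and 0.489 in control). Its log2 fold change was -0.18 with a 95% interval from -0.40 to 0.04 (limma-trend, adjusted p = 0.359). Nr2f1 (ENSMUSG00000069171.14, chromosome 13, minus strand, 78188973 to 78199757) had 9.92, 10.9 and 11.04 FPKM in GC, against 10.7, 11.6 and 11.3 FPKM in control, and the groups overlapped. Its log2 fold change was -0.07, or -0.02 without GC replicate 1, with a 95% interval from -0.28 to 0.15 (limma-trend, adjusted p = 0.761). On the opposite strand, B130024G19Rik covers 643 exon bases of Nr2f2 (7.46%) and A830082K12Rik covers 123 of Nr2f1 (2.42%). These partners averaged 0.779 and 1.05 FPKM over the 6 libraries, and the strand setting of the counting is not given, so a small part of the reads is uncertain.

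Nr4a1 (ENSMUSG00000023034.7, chromosome 15, plus strand, 101254269 to 101274795) encodes NUR77, a receptor without a known natural ligand whose gene is switched on within minutes to hours by growth factors and stress. It had 4.04, 2.86 and 2.08 FPKM in GC replicates 1 to 3, against 4.08, 3.77 and 3.43 FPKM in control replicates 1 to 3. GC replicate 1 lay among the control libraries and the other GC libraries below them. Its log2 fold change was -0.28 with a 95% interval from -0.70 to 0.14 (limma-trend, adjusted p = 0.456). Without GC replicate 1 it was -0.46 and without GC replicate 3 it was -0.11. With between 126 and 241 reads per library it was the least deeply measured of the tested members. Its relative Nr4a2 averaged 1.36 ± 0.242 FPKM in GC and 1.93 ± 0.302 FPKM in control (SD, n = 3 each; limma-trend, adjusted p = 0.294).

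Ratios between related receptors within a library do not depend on an overall scaling of that library. A trend over gene length does not cancel in them. Rara stood at 0.488, 0.525 and 0.494 of Rarg in GC replicates 1 to 3, against 0.368, 0.387 and 0.345 in control replicates 1 to 3. All GC libraries lay above all control libraries, and the group means differed by 0.45 on the log2 scale. The two-sided exact permutation p was 0.1, the smallest that 3 against 3 libraries allow, or 0.25 adjusted over the 5 ratios computed, so this design could not pass a threshold of 0.05. Rarg made up 67.2%, 65.6% and 67.0% of the summed FPKM of both genes in GC, against 73.1%, 72.1% and 74.4% in control. Of all 10 receptor genes it made up 25.4%, 22.1% and 24.4% in GC, against 32.8%, 32.8% and 33.05% in control.

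Nr2f1 stood at 0.404, 0.388 and 0.417 of Nr2f2 in GC, against 0.353, 0.382 and 0.383 in control, without overlap and with the same exact permutation p of 0.1 (0.25 adjusted). With the trend over gene length removed from each library, the log2 fold changes were -0.02 for Nr2f1 and -0.07 for Nr2f2, against -0.07 and -0.18 with it. The ratio was not computed with the trend removed. The ratio of Rxra to Rxrb was 1.60, 1.86 and 1.26 in GC and 1.76, 1.70 and 1.28 in control, and replicate 3 was the lowest in both groups (exact permutation p = 0.9). The COUP-TF genes together stood at 0.934, 1.07 and 1.21 of the RXR genes together in GC, against 0.910, 1.02 and 0.988 in control (exact permutation p = 0.3). Ppard exceeded Pparg between 62.8-fold and 190.2-fold in GC and between 49.6-fold and 197-fold in control (exact permutation p = 0.9), a spread set by the few Pparg reads.

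**Figure D3:**
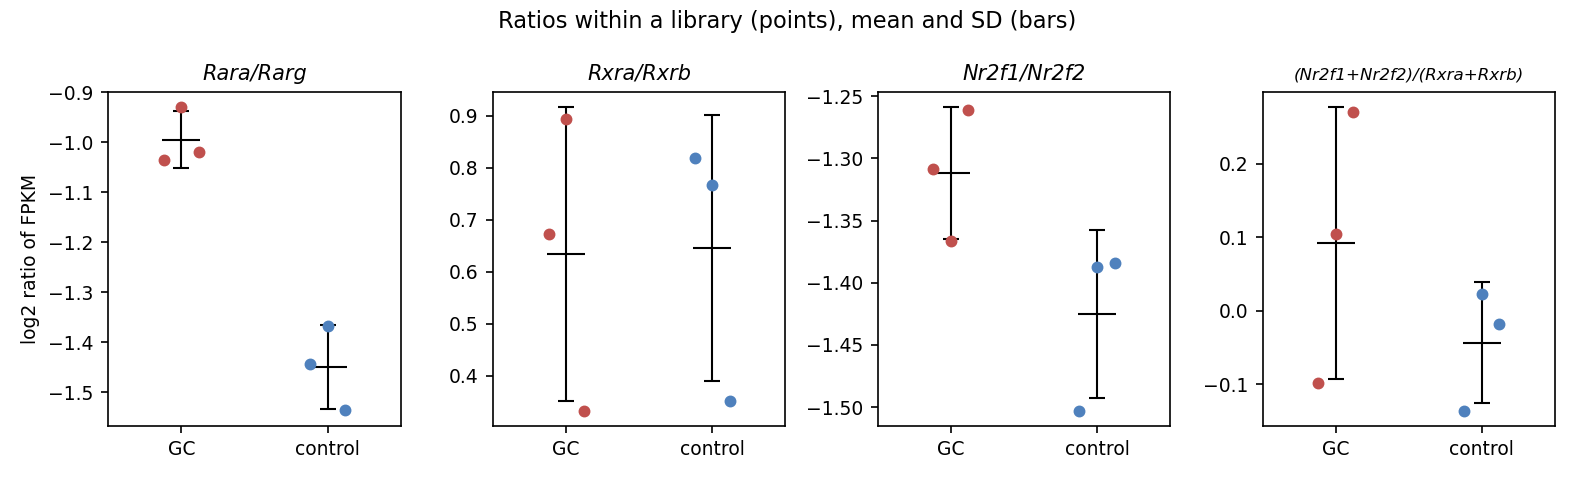
Log2 ratios of FPKM within each library are plotted for 4 pairs, GC libraries left and control libraries right, with points for libraries and bars for mean and SD (n = 3 each). Each panel has its own axis, which does not start at 0. The Rara to Rarg ratio averages -0.99 in GC and -1.45 in control, without overlap.

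Genes around the receptors were taken from lists of ligand handling, targets and partners. Over all tested genes, limma-trend called 1.08% higher and 0.853% lower in GC, or 3.96% and 5% with the replicate block. Of 20 retinoid handling and target genes 7 were tested. Of these 1 rose, 6 did not pass and none fell, and the median log2 fold change was 0.12. Aldh1a1, an enzyme that makes retinoic acid from retinaldehyde, rose to 5.94, 5.04 and 5.12 FPKM in GC, against 3.15, 3.01 and 2.62 FPKM in control, a log2 fold change of 0.70 ± 0.11 (SE, limma-trend, adjusted p = 0.0317). Under the replicate block, 3 of the 7 rose and 2 fell. The 4 genes that passed with the block and not without it are named after their values were seen. Crabp2, the carrier that hands retinoic acid to its receptors, fell with the block to 81.5, 53.04 and 65.6 FPKM in GC, against 108, 107 and 117 FPKM in control (adjusted p = 0.0684 without and 0.0228 with the block). Adh7, an alcohol dehydrogenase that oxidises retinol, fell with the block to 32.4, 24.8 and 28.5 FPKM in GC, against 43.2, 40.7 and 43.02 FPKM in control (adjusted p = 0.0620 and 0.0174).

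Dhrs3, which turns retinaldehyde back into retinol, rose with the block to 2.66, 2.30 and 3.09 FPKM in GC, against 1.21, 1.15 and 1.72 FPKM in control (limma-trend, adjusted p = 0.0775 without and 0.0228 with the block). Tgm2, a transglutaminase induced by retinoic acid in other cells, rose with the block to 13.4, 12.7 and 10.2 FPKM in GC, against 9.57, 8.83 and 8.05 FPKM in control (adjusted p = 0.138 and 0.0316). Cyp26b1, an enzyme that degrades retinoic acid, averaged 2.34 ± 0.378 FPKM in GC and 2.07 ± 0.368 FPKM in control (SD, n = 3 each; limma-trend, adjusted p = 0.715).

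Of 18 vitamin D handling and target genes 3 were tested, of which 1 rose and none fell. Over all tested genes 1.08% rose and 0.853% fell by limma-trend. Txnip, an inhibitor of thioredoxin that was found as a vitamin D-induced transcript in human leukaemia cells, rose to 117, 94.3 and 99.5 FPKM in GC, against 47.8, 43.2 and 42.7 FPKM in control (log2 fold change 1.20 ± 0.12 SE, limma-trend, adjusted p = 0.00793). Spp1 and Lrp5 did not pass, with adjusted p-values of 0.782 and 0.761. Of 24 PPAR targets 11 were tested. Of these 1 rose, 10 did not pass and none fell, and the median log2 fold change was 0.00. Pdk4, a kinase that slows glucose oxidation and is also a textbook glucocorticoid-induced gene, rose to 37.1, 36.5 and 31.7 FPKM in GC, against 20.7, 21.02 and 19.9 FPKM in control (log2 fold change 0.74 ± 0.10 SE, limma-trend, adjusted p = 0.0206). Of the fat cell targets in the list, Fabp4 and Adipoq had the few reads given above, Cidea was at 0.0506, 0 and 0.0498 FPKM in GC and 0 in control, and Plin1 and Cidec were at 0 in all libraries. These are named after their values were seen and were too low to test.

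None of the 11 tested among 31 other nuclear receptor genes passed, by limma-trend or with the replicate block, and limma-trend gave 2 of them an unadjusted p under 0.05, as it did 19.3% of all tested genes. Nr1h2, the liver X receptor beta gene, averaged 20.1 ± 1.97 FPKM in GC and 22.2 ± 0.962 FPKM in control, and Thra, the thyroid hormone receptor alpha gene, 16.5 ± 1.52 FPKM in GC and 20.06 ± 0.756 FPKM in control (SD, n = 3 each). In limma-trend their adjusted p-values were 0.538 and 0.205. Of 15 immediate early genes, which like Nr4a1 respond quickly to signals, 12 were tested. Limma-trend called 0.853% of all tested genes lower in GC, or 5% with the replicate block. Of the 12 early genes 2 fell, none rose and 10 did not pass, and 3 fell with the block. The median log2 fold change of the 12 was -0.16. The gene that passed with the block and not without it, Ier2, named after its values were seen, had 23.5, 17.6 and 21.6 FPKM in GC, against 29.2, 23.8 and 32.2 FPKM in control (log2 fold change -0.43, limma-trend, adjusted p = 0.182 without and 0.0316 with the block). Egr2, a zinc finger transcription factor, fell to 4.37, 3.09 and 3.43 FPKM in GC, against 7.76, 7.57 and 5.93 FPKM in control (log2 fold change -0.81, limma-trend, adjusted p = 0.0376). Egr3, its relative, fell to 1.38, 1.21 and 1.12 FPKM in GC, against 3.05, 2.57 and 2.497 FPKM in control (log2 fold change -0.73, adjusted p = 0.0372). Leaving out each library in turn ended the call of Txnip in 3 of 6 cases (without GC replicate 3 and control replicates 2 and 3, where its log2 fold change was 1.22, 1.17 and 1.17). Pdk4 and Egr2 passed only without GC replicate 1 or GC replicate 2, and Aldh1a1 and Egr3 only without GC replicate 2, with log2 fold changes over the 6 cases of 0.70 to 0.81 for Pdk4, -0.92 to -0.72 for Egr2, 0.63 to 0.74 for Aldh1a1 and -0.77 to -0.66 for Egr3.

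**Figure D4:**
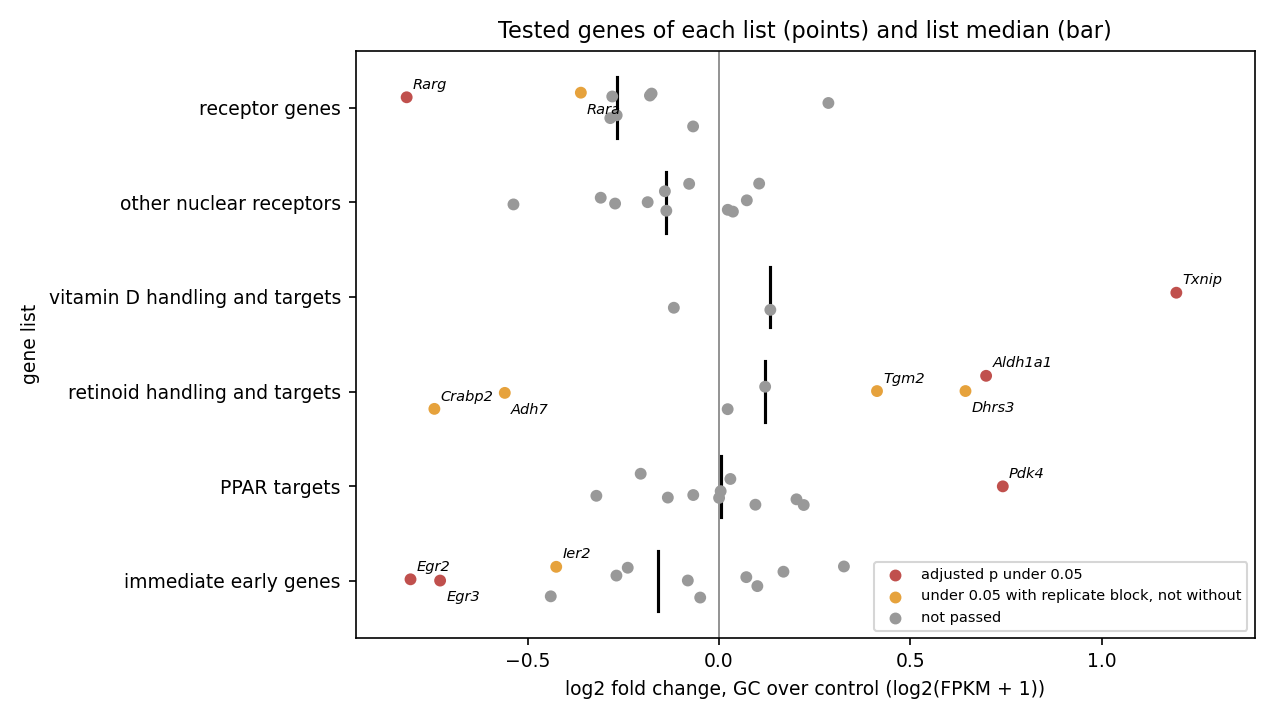
Points are the log2 fold changes of GC over control on the log2(FPKM + 1) scale for the tested genes of each list. The coregulator list is not plotted, and black bars are list medians. Red points passed at an adjusted p under 0.05, orange points passed with the replicate block and not without it, and points are shifted up or down only for legibility. Rarg stands apart at the left of the receptor genes (-0.82), and the retinoid genes lie on both sides of 0.

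Over the 6 libraries, the gene whose log2(FPKM + 1) followed Rarg most closely among 10390 others was Tle1, a corepressor gene (Pearson r = 0.998). It averaged 3.93 ± 0.0984 FPKM in GC and 4.95 ± 0.0608 FPKM in control (SD, n = 3 each). For Rara it was Fzd1, a Wnt receptor gene (r = 0.997), and for Vdr it was Fzd6, another of that family (r = 0.989). In limma-trend the adjusted p was 0.175 for Tle1, 0.0850 for Fzd1 and 0.447 for Fzd6. These are the highest of many correlations over few libraries that share their depth and scaling, and are given as a description.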

How the data were processed

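Messenger RNA of cells after 12 hours was sequenced in 3 GC and 3 control libraries. Total RNA, per the labels' protocols, was isolated with TRIzol and mRNA was fragmented for the NEBNext Ultra library kit. Per the submitters' processing notes, HISAT2, HTSeq, DESeq2 and the build mm10 were used. Annotation release: not given in the sources used here. The same holds for the strand setting. The table the authors deposited names no unit in its header, and its values were read as FPKM because of their steps. With GENCODE M21 exon lengths and 1 depth for each library, they came out as whole reads within 0.0001 in all libraries for 96.7% of 26446 named rows above 0. For other tested rows the whole-number length that gave whole reads was used, and 11726 of 11730 tested rows had recovered reads. The replicates are called biological in the series' design text, without a word on whether cultures were separate, so p-values measure the spread between these libraries, which may be technical. Intervals of reads cover counting error only.

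Rows reaching 1 FPKM in 3 or more libraries were tested with limma-trend (limma 3.58.1, R 4.3.3, robust eBayes) on log2(FPKM + 1), two-sided, with Benjamini-Hochberg adjustment over all 11730 rows and a threshold of 0.05. The procedure was also run on simulated counts. These had independent libraries and the same relative spread for every gene, unlike the data here, so that run does not vouch for the calls reported. Ratios were tested by exact permutation (scipy 1.17.1). Names shared by 203 rows were kept apart, with the highest row holding the symbol. Receptor genes and lists were chosen with earlier results of these data known. Named in the text are the 10 receptor genes, 3 treatment check genes and, per list, up to 4 genes past the threshold with the largest fold change, or the 2 most abundant where none passed, and for likeness the most correlated gene of the 3 receptor genes with the largest fold change. Others are said to be named after their values were seen, or are members of the receptor groups and target genes given as levels. Single cell type markers were picked from their lists outside this rule. For 1 coregulator gene, values are not reported here.

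Deviations from the group mean correlated between GC and control libraries of the same replicate number (0.511, 0.248 and 0.383 for numbers 1, 2 and 3, and at most 0.0233 between different numbers). Deviations within a group cancel for each gene, so positive correlations at the same number push those between different numbers down. The numbers come from the sample titles, which do not say what they share. Blocked values are therefore given where they change a call.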

Additional observations from a re-analysis of the deposited data

How the results depend on the processing

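All 9 tested receptor genes kept the sign of their fold change under the 13 alternatives run, 6 of which left out 1 library. The replicate block and the unfiltered fit leave each fold change as it is, so no sign could change in them. Rarg lost its call with no filter (log2 fold change -0.82, adjusted p = 0.0829) and ranged from -0.88 to -0.78 with 1 library left out, passing in 2 of these 6 cases. Rara gained a call with the replicate block (-0.36, adjusted p = 0.0383), so 2 receptor genes passed with the block, 0 with no filter, and 0 to 1 with 1 library left out. The cause was not tested, other than that the unfiltered fit adjusts over more rows. Over all genes, 1051 passed with the replicate block (465 higher and 586 lower in GC), 17 with no filter (15 and 2), 379 with quantile normalization (219 and 160), 385 by limma-voom on recovered reads (193 and 192) and 428 with the trend over gene length removed (238 and 190), an alternative chosen after seeing the data. Leaving out 1 library gave 16 to 1227 genes (14 to 465 higher and 2 to 762 lower), with the most without GC replicate 2 and the fewest without GC replicate 3.

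In the lists, 5 retinoid genes passed with the replicate block, 3 by limma-voom, 3 with quantile normalization, 3 on the TPM scale, 3 with the length trend removed, 0 with no filter and 0 to 4 with 1 library left out. Of the coregulators 3 passed with the block, 1 by limma-voom and 0 to 9 with 1 library left out. Of the immediate early genes 1 passed with quantile normalization, 0 with no filter and 0 to 2 with 1 library left out. The vitamin D and PPAR lists each had 0 with no filter and 0 to 1 with 1 library left out, and the other receptors 0 to 1. The block moved 3 immediate early genes past the threshold in place of 2. The log2 difference of the Rxra to Rxrb ratio, not called, ranged from -0.16 to 0.14 with 1 library left out, turning positive without GC replicate 3 (0.14), control replicate 1 (0.08) and control replicate 2 (0.05). That of Ppard to Pparg ranged from -0.74 to 0.25, positive without GC replicate 2 (0.16) and control replicate 3 (0.25). Pparg lay below the filter, and its few reads limit any statement on it.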

Other observations

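Of 24 coregulator genes, whose proteins carry the receptors' signal to chromatin, 21 were tested with limma-trend and none passed. An unadjusted p under 0.05 was found for 7, all with negative fold changes, where 19.3% of all tested genes had such a p and 11.5% had it with a negative fold change. Of the 21, 19 had negative and 2 positive log2 fold changes, with a median of -0.32 against -0.01 over all tested genes. GC replicate 2, which stood apart from the other GC libraries on the first principal component, was the highest GC library for 18 of the 21. How often this library was highest over all tested genes was not counted. Without GC replicate 2, 1227 of all 11730 tested genes passed limma-trend, among them 9 of the 21 coregulators. The 2 most abundant were Tbl1x, a subunit of the corepressor complex, with 27.4 ± 2.90 FPKM in GC and 32.6 ± 2.23 FPKM in control, and Hdac3, its histone deacetylase, with 23.5 ± 3.86 FPKM in GC and 20.5 ± 1.14 FPKM in control (SD, n = 3 each; limma-trend, adjusted p = 0.293 and 0.505). With the replicate number as a block 3 coregulators fell, where 5% of all tested genes fell. Of the 3, 2 are named here, after their values were seen. Ncoa3, a coactivator, fell with the block (limma-trend, adjusted p = 0.142 without and 0.0425 with the block). It had 4.45, 6.02 and 3.91 FPKM in GC, against 6.93, 7.24 and 6.61 FPKM in control, and Ppargc1b, a coactivator of metabolic genes (adjusted p = 0.0964 and 0.0332), had 0.516, 1.27 and 0.523 FPKM in GC, against 2.37, 2.22 and 1.56 FPKM in control.

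Many coregulator genes are long, and fold changes went with length across all genes. The median log2 fold change was 0.08 in the quintile with the shortest exons and -0.13 in the quintile with the longest, from 7320 bases up, which held 15 of the 21 coregulators and, of the receptor genes, Ppard and Nr2f2. With the length trend of each library removed, the coregulator median was -0.20, against 0.005 over all tested genes. The part of length in the coregulator values was not tested. In the fit with the trend removed, the log2 fold changes were -0.80 for Rarg, -0.34 for Rara, -0.23 for Rxra, -0.28 for Rxrb, -0.08 for Ppard, -0.07 for Nr2f2, -0.02 for Nr2f1, -0.30 for Nr4a1 and 0.34 for Vdr. Rarg passed in that fit (limma-trend, adjusted p = 0.00400).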
